A study of Rattus norvegicus with 9 samples.

Results

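The 36 homeostatic astrocyte genes described here form a list of genes that resting astrocytes use for their supporting work. The list was chosen with earlier results of these data known. All 36 were found among the 23953 genes of the count table. Homeostatic astrocytes clear glutamate and GABA from the synapse, move water and ions through aquaporin and bicarbonate transporters, share small molecules through connexin gap junctions, make glutamine, store glycogen and bind metal ions through metallothioneins. Most of these genes rise as glial progenitors mature, and several of the transcription factors and lipid-binding proteins in the list are already present in neural stem cells (NSCs).

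The cells were NSCs from the spinal cords of newborn rats, labelled as neural stem cells. All 3 groups shared a differentiation medium, which was used alone in the Con group, with added exosomes from mesenchymal stem cells of the bone marrow (BMSC-Exos) in the Exo group, and with exosomes of Wnt5a-overexpressing BMSCs in the pLV-Exo-Wnt5a group, with 3 libraries in each. By the study's methods, the exosomes of the Exo group came from BMSCs carrying the empty lentiviral vector, whereas the labels say only BMSC-Exos. One batch value was given for all 9 libraries, and nothing states that the 3 libraries of a group came from separate cultures, so p-values measure the spread between these libraries, which may be technical.

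The libraries held 32765138 to 40427647 counts, and 3 counts corresponded to 0.0742 to 0.0916 CPM. CPM are counts scaled to a common library total, after adjustment by the trimmed mean of M values (TMM), and they are compared only between libraries, not between genes, because gene lengths were not used. Each pair of groups was compared by edgeR's quasi-likelihood test, and Q is the p-value after Benjamini-Hochberg adjustment over all 15070 to 15132 genes tested. Con replicate 1 stood apart from the other Con libraries: the median distance of a member from its group mean was 0.178 on the log2 scale there and 0.0549 to 0.122 in the other 8 libraries. Over all genes that passed a filter on low counts it was 0.17 there and 0.0729 to 0.125 in the other 8. The distance was thus not particular to the members. The Con libraries serve in both comparisons with Con, and the Exo libraries in both comparisons with Exo, so the 3 comparisons are not independent.

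Every member had counts in every library, the lowest being 11, and all 36 passed the filter on low counts in each comparison. The defining astrocyte genes Aqp4, Slc1a2, Slc1a3, Gja1, Aldh1l1, S100b and Sox9 were present in all 9 libraries. Slc7a11, Gjb6 and Ppp1r3g had mean CPM below 2 over the 9 libraries. The libraries were bulk RNA, in which fewer cells of a type and less RNA per cell cannot be told apart. A list of 23 neuronal genes summed to 4627 to 5873 CPM and a list of 17 oligodendrocyte lineage genes to 3293 to 4166 CPM, so the cultures also held transcripts of other neural cell types.

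The promoters of 5 members are shown because Slc6a11 and Sparcl1 were the members that passed the adjusted test and because the metallothioneins Mt1, Mt2 and Mt3 share a promoter element. Sequences are the 250 bases before the RefSeq start site in rat build GRCr8, read 5′ to 3′ on the strand of the gene, and 34 of the 36 members had one, the others being Sox9 and F3. Capitals mark the metal response element, the site bound by the metal-responsive factor MTF1, searched as TGCACNC or TGCGCNC on both strands. It occurred in at least 1 promoter of 13 of the 34 members, among them Mt1, Mt2 and Mt3, and in 20.6% of all 33469 rat promoters in the table. Members were counted by gene, 6 of them with several start sites, and the table by promoter, so the shares are not alike. Mt1 held 6 matches, Mt2 (listed as Mt2A in the rat annotation) 4 and Mt3 3, whereas Slc6a11 and Sparcl1 held 0.
Slc6a11, chr4:148853307-148853556, plus strand: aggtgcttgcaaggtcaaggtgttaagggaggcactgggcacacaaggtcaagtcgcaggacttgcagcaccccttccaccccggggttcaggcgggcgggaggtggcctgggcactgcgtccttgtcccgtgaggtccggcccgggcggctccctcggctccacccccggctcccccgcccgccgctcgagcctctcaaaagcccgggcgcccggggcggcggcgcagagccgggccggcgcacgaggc
Sparcl1, chr14:5937234-5937483, plus strand: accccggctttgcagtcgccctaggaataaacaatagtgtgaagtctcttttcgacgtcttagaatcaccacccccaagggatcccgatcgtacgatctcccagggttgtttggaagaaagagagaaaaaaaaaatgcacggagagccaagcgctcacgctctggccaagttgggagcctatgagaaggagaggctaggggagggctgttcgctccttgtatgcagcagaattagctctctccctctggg
Mt1, chr19:10832976-10833225, minus strand: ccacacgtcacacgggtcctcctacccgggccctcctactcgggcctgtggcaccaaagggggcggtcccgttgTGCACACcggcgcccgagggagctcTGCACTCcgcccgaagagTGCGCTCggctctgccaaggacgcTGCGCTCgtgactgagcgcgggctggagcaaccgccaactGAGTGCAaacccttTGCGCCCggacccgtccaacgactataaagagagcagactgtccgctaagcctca
Mt2, chr19:10838709-10838958, minus strand: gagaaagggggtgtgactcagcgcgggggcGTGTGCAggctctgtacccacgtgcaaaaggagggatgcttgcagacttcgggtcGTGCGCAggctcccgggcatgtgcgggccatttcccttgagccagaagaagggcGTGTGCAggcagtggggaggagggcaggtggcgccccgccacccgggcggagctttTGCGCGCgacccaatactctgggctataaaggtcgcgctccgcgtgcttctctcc
Mt3, chr19:10856081-10856330, minus strand: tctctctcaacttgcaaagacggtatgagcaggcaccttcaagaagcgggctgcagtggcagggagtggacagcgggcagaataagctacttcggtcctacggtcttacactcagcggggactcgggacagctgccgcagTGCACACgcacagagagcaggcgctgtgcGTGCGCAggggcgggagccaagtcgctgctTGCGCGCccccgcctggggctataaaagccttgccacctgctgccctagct

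The consensus NFI site, TTGGC and GCCAA with 5 bases of any kind between them, was in a promoter of 0 of the 34 members and in 0.0359% of all promoters. The STAT site TTCNNNGAA was in a promoter of each of Acsbg1, Ppp1r3c and Ntsr2, and in 7.67% of all promoters. A match describes letters in this window and not the binding of a factor.

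Between Wnt5a-modified and unmodified exosomes, 2 of the 36 members passed the adjusted test by edgeR, and both fell: Slc6a11, the astrocyte GABA transporter, and Sparcl1, a secreted protein also called hevin that promotes synapse formation. Neither reached a fold change of 2. Of all genes tested in that comparison, 0.436% passed at a Q of 0.05 (0.0925% as lower) and 0.159% passed with a fold change above 2 or below 0.5. At an unadjusted p of 0.05, 17 members (47.2%) were called, 6 with higher and 11 with lower levels after Wnt5a-modified exosomes, where 12% of all tested genes were called, 5.07% higher and 6.91% lower. With DESeq2, 9 members passed the adjusted threshold in that comparison, where 2.74% of the genes with an adjusted p did: Slc1a2, Slc1a3, Slc4a4, Slc6a11, Fgfr3, Nfib and Sparcl1 as lower, and Ntsr2 and Sparc as higher. Against Con, 0 members passed Q in either exosome group by edgeR, where 0.00664% of genes passed for Exo and 0.0862% for pLV-Exo-Wnt5a. With DESeq2, 2 members (Cbs and Gpc5) passed in Exo against Con, over 1.64% of the genes with an adjusted p, and 3 (Slc6a11, Slc14a1 and Ppp1r3g) in pLV-Exo-Wnt5a against Con, over 0.478%. Unadjusted, 10 members (27.8%) were called in Exo against Con, 6 higher and 4 lower, over a background of 14.9% (8.92% higher, 6.01% lower). In pLV-Exo-Wnt5a against Con, 9 of 36 members were called, 2 higher and 7 lower, over a background of 8.35% (4.20% higher, 4.15% lower). Because the members were chosen with earlier results of these data known, their shares beside all genes are a description and not a test.

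**Figure D1:**
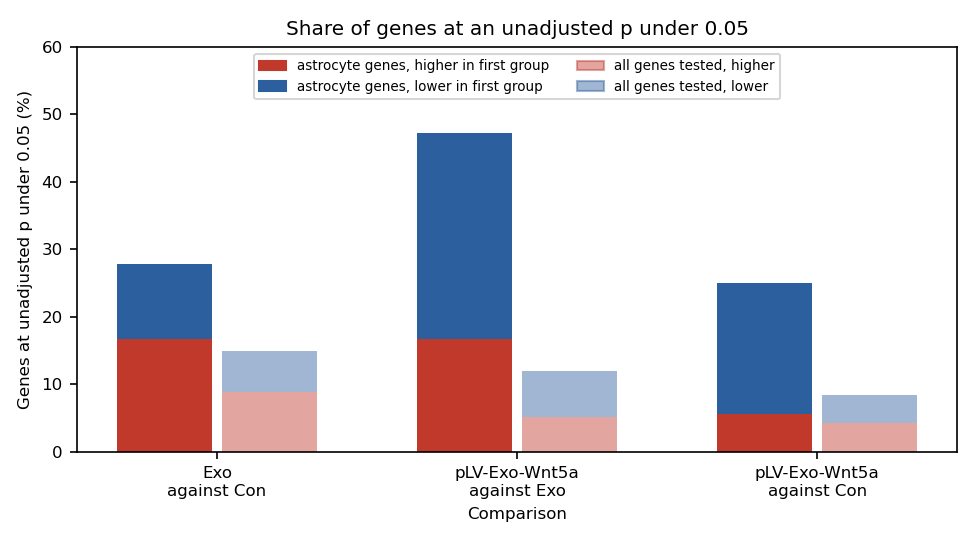
Share of genes (percent) with an unadjusted p under 0.05 in each of the 3 comparisons, for the 36 members (solid bars) and for all genes tested (pale bars), with genes higher in the first-named group in red and lower ones stacked above in blue. In pLV-Exo-Wnt5a against Exo the members' share was 47.2% against 12% of all genes, and in Exo against Con it was 27.8% against 14.9%. The members were chosen with earlier results of these data known.

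Genes with more counts can be called at smaller differences. Over the 9249 genes with a mean of at least 10 CPM, a limit chosen after the values were seen, 17.7% were called in Exo against Con, 12.1% in pLV-Exo-Wnt5a against Exo and 9.55% in pLV-Exo-Wnt5a against Con. The 30 members at that level were called in 23.3%, 46.7% and 20.0% of cases. The members did not move in 1 direction: the median log2FC was 0.06 in Exo against Con (20 higher, 16 lower), -0.08 in pLV-Exo-Wnt5a against Exo (16 higher, 20 lower) and -0.04 in pLV-Exo-Wnt5a against Con (17 higher, 19 lower), beside medians of 0.0020, 0.0049 and 0.0041 for all genes tested. Without pLV-Exo-Wnt5a replicate 2, the lowest library of the 9 for 12 members, the medians of both comparisons of that group became 0.0076 against Exo and 0.0352 against Con. The CPM of the 2 groups did not overlap for 12 members in Exo against Con (23.3% of all genes), for 14 in pLV-Exo-Wnt5a against Exo (16.4%) and for 9 in pLV-Exo-Wnt5a against Con (17.1%).

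**Figure D2:**
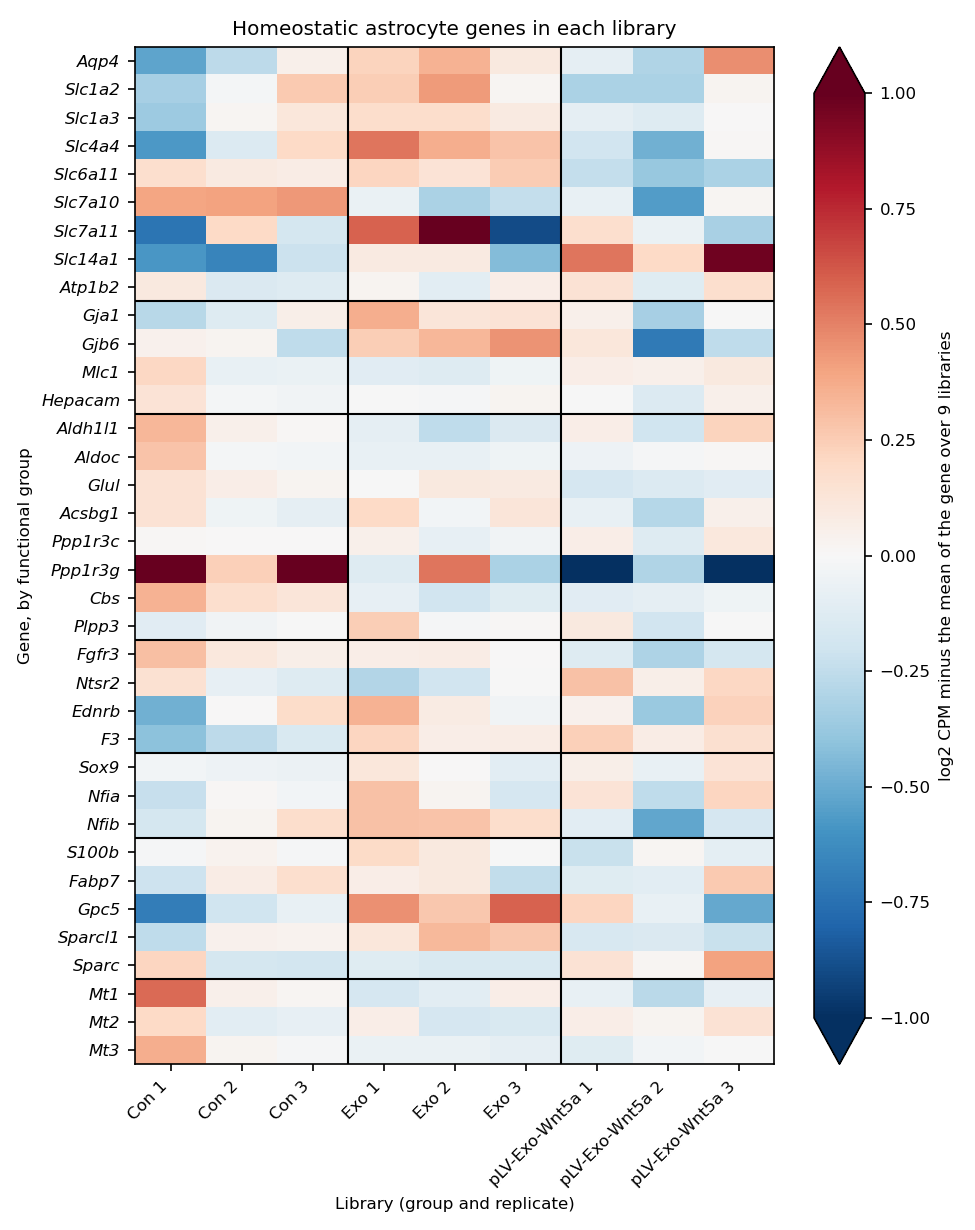
Log2 CPM of the 36 members (rows, by role) in the 9 libraries (columns), each row centred on its mean over the libraries, with the scale in the colour bar. Rows differ in sign across the groups, and Con replicate 1 was the highest library for 11 members and the lowest for 8.

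**Figure D3:**
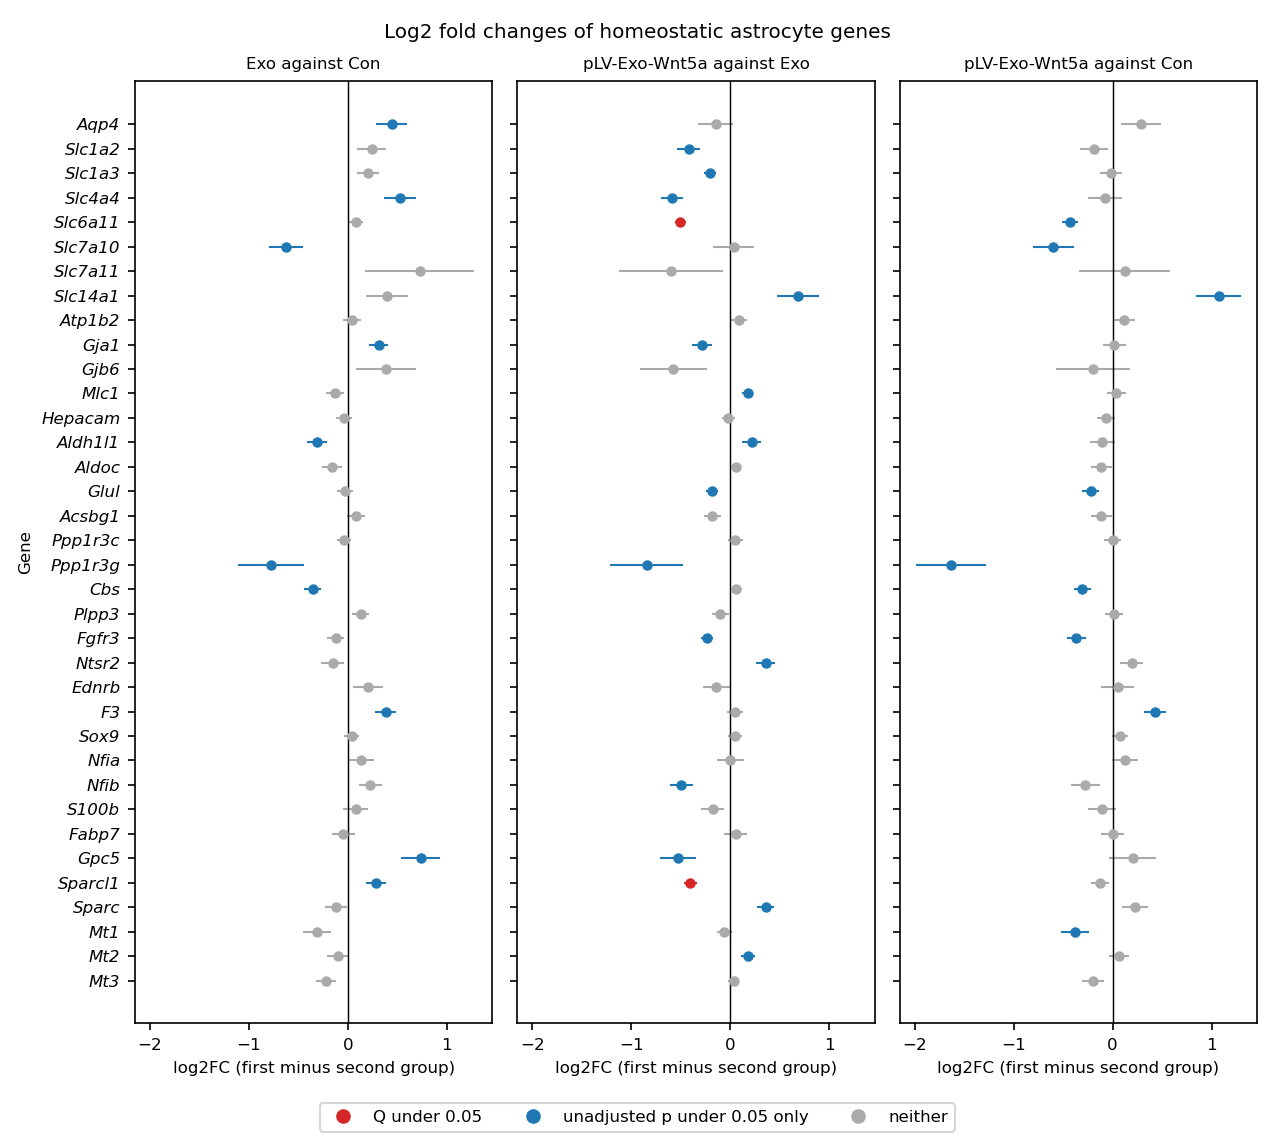
Log2FC of each of the 36 members (points) with its standard error (bars) in the 3 comparisons, by edgeR with 3 libraries per group. Red marks Q under 0.05, which only Slc6a11 and Sparcl1 reached, both in pLV-Exo-Wnt5a against Exo, blue an unadjusted p under 0.05 alone and grey neither.

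Among the 9 water and solute transporters, 1 was called higher and 4 lower at an unadjusted p of 0.05 in pLV-Exo-Wnt5a against Exo, where 5.07% of all genes were called higher and 6.91% lower. In Exo against Con 2 were called higher and 1 lower, where 8.92% of all genes were called higher and 6.01% lower. In pLV-Exo-Wnt5a against Con 1 was called higher and 2 lower, where 4.20% of all genes were called higher and 4.15% lower. Slc6a11 takes up GABA. Its CPM were 809, 767 and 759.7 in the Con libraries, 834, 794 and 859.6 in the Exo libraries, and 609, 553 and 578 with Wnt5a-modified exosomes. All 3 pLV-Exo-Wnt5a libraries lay below all 6 others, while Con and Exo overlapped. The log2FC of pLV-Exo-Wnt5a against Exo was -0.50 ± 0.06 (SE) by edgeR's quasi-likelihood test (Q = 0.00363), and Q stayed below 0.05 in 12 of 12 alternative settings, from 1.2e-11 to 0.0261. Against Con it was -0.43 ± 0.08 by the same test (Q = 0.141), and over the alternatives Q ran from 0.00327 to 0.622, passing with DESeq2, with all 9 libraries in the fit, with no filter on low counts and without Con replicate 1.

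Slc4a4 is a sodium bicarbonate cotransporter. It measured 46.9, 63.6 and 80.5 CPM in Con, 102, 89.9 and 85.1 in Exo, and 61.3, 50.2 and 70.5 in the pLV-Exo-Wnt5a group. The Exo libraries lay above all 6 others, with log2FC of 0.53 ± 0.16 (SE) over Con (edgeR, Q = 0.265), and pLV-Exo-Wnt5a against Exo was -0.59 ± 0.11 (Q = 0.0563). The difference of Exo from Con was 0.35 without Con replicate 1. Its Q passed without Con replicate 3 (0.0284) and with no filter on low counts (0.0185). For pLV-Exo-Wnt5a against Exo, Q passed without pLV-Exo-Wnt5a replicate 3 (0.022), with DESeq2, with no filter and with the replicate block (0.0369). It ran from 0.000113 to 0.285 over the alternatives. Slc1a2 and Slc1a3 are the main glutamate transporters of astrocytes. Slc1a2 was at 69.5, 86.7 and 105 CPM in Con, 104, 118 and 88.7 in Exo, and 70.4, 70.4 and 89.5 with Wnt5a-modified exosomes. The Exo and pLV-Exo-Wnt5a libraries overlapped narrowly, with a log2FC of -0.42 ± 0.12 (SE) between them (edgeR, Q = 0.176). Slc1a3 was at 437, 569 and 605 CPM in Con, 632, 631 and 598 in Exo, and 526, 512 and 562 in the pLV-Exo-Wnt5a group. All 3 pLV-Exo-Wnt5a libraries were below the Exo libraries, by a log2FC of -0.21 ± 0.06 (SE, edgeR, Q = 0.184).

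Aqp4, the water channel of astrocyte endfeet, was at 11.97, 14.4 and 17.8 CPM in Con, 20.1, 21.9 and 18.4 in Exo, and 16.2, 14.0 and 23.7 in the pLV-Exo-Wnt5a group. Exo lay above Con in every library (log2FC 0.44 ± 0.15 SE, edgeR, Q = 0.277), and the pLV-Exo-Wnt5a libraries overlapped both groups. The unadjusted call of Aqp4 was lost without Exo replicate 2 (log2FC 0.37) and without Con replicate 2 (log2FC 0.43). Slc7a10, a carrier of small neutral amino acids, was at 5.50, 5.55 and 5.66 CPM in Con, 4.01, 3.37 and 3.56 in Exo, and 3.99, 2.84 and 4.24 in the pLV-Exo-Wnt5a group. Both exosome groups lay below Con without overlap, with log2FC of -0.62 ± 0.17 for Exo and -0.60 ± 0.20 for pLV-Exo-Wnt5a (SE, edgeR, Q = 0.265 and 0.509). Without pLV-Exo-Wnt5a replicate 2 the latter was -0.44 and the unadjusted call was lost. Slc14a1, a urea transporter, was at 3.71, 3.52 and 4.78 CPM in Con, 5.89, 5.89 and 4.12 in Exo, and 8.05, 6.37 and 10.9 in the pLV-Exo-Wnt5a group. All 3 pLV-Exo-Wnt5a libraries were above all 6 others, with log2FC of 1.07 ± 0.22 over Con and 0.69 ± 0.22 over Exo (SE, edgeR, Q = 0.209 and 0.226). Over Con, Q ran from 0.00284 to 0.736 in the alternatives, passing with DESeq2, with no filter on low counts and with the replicate block. Over Exo, the log2FC was 0.45 without pLV-Exo-Wnt5a replicate 3, and the unadjusted call was lost. Atp1b2, a sodium pump subunit, was at 1266, 1071 and 1079 CPM in Con, 1208, 1097 and 1238 in Exo, and 1306, 1085 and 1332 in the pLV-Exo-Wnt5a group, and the 3 groups overlapped. Slc7a11, the cystine/glutamate exchanger, ranged from 0.278 to 1.21 CPM, with both ends in the Exo group.

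**Figure D4:**
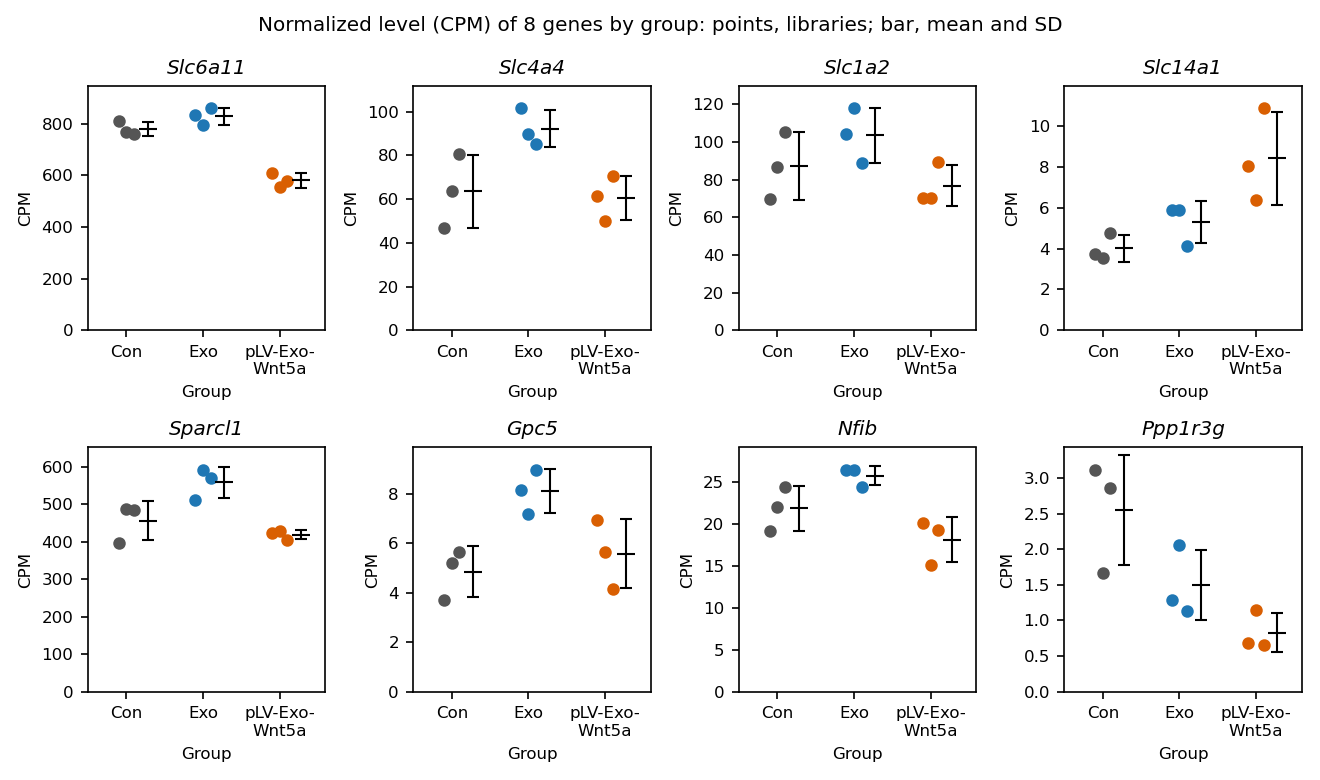
CPM of 8 members in each library (points), by group, with the mean and SD (bars, n = 3). Slc6a11 was lowest in the pLV-Exo-Wnt5a libraries (553 to 609 CPM), Slc14a1 highest there (6.37 to 10.9 CPM), and Slc4a4 highest in Exo (85.1 to 102 CPM).

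Among the junction genes, Gja1 encodes the main gap junction connexin of astrocytes, and was at 189, 209 and 237 CPM in Con, 294, 249 and 252 in Exo, and 237, 181 and 228 in the pLV-Exo-Wnt5a group. All Exo libraries were above all Con and all pLV-Exo-Wnt5a libraries, with log2FC of 0.31 ± 0.10 over Con, and -0.29 ± 0.10 for pLV-Exo-Wnt5a against Exo (SE, edgeR, Q = 0.265 and 0.282). The latter was -0.17 without pLV-Exo-Wnt5a replicate 2, and its unadjusted call was lost without Exo replicate 1 (log2FC -0.21). Gjb6, a second astrocyte connexin, was within 0.602 to 1.34 CPM over the 9 libraries. Mlc1 encodes a membrane protein of astrocyte contacts, and its partner is Hepacam. Mlc1 was at 762, 629 and 631 CPM in Con, 613, 606 and 643 in Exo, and 694, 686 and 708 in the pLV-Exo-Wnt5a group, where all libraries exceeded the Exo ones (log2FC 0.18 ± 0.05 SE, edgeR, Q = 0.206). Hepacam ranged from 162 to 197 CPM, and its groups overlapped.

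Among the 8 metabolic enzymes and glycogen regulators, 3 were called lower and 0 higher in each comparison with Con at an unadjusted p of 0.05, where 6.01% of all genes were called lower in Exo and 4.15% in pLV-Exo-Wnt5a. In pLV-Exo-Wnt5a against Exo 1 was called higher and 2 lower, where 5.07% of all genes were called higher and 6.91% lower. Both comparisons with Con used the same Con libraries. Con replicate 1 was the highest of the 9 libraries for each of the members called, Cbs, Ppp1r3g, Aldh1l1 and Glul. Cbs, which starts the conversion of homocysteine to cysteine, was at 195, 172 and 167 CPM in Con, 145, 134 and 141 in Exo, and 142, 144 and 149 in the pLV-Exo-Wnt5a group. Con lay above both exosome groups without overlap, and the log2FC was -0.36 ± 0.08 for Exo and -0.30 ± 0.09 for pLV-Exo-Wnt5a (SE, edgeR, Q = 0.265 and 0.433). Without Con replicate 1, Exo against Con kept its unadjusted call (log2FC -0.28), and without Con replicate 3 it passed Q (0.0464). Ppp1r3g, a glycogen-targeting phosphatase subunit, was at 3.11, 1.67 and 2.86 CPM in Con, 1.29, 2.05 and 1.14 in Exo, and 0.682, 1.15 and 0.654 with Wnt5a-modified exosomes. The pLV-Exo-Wnt5a libraries lay below all Con libraries (log2FC -1.63 ± 0.36 SE, edgeR, Q = 0.222), and Con and Exo overlapped (log2FC -0.77 ± 0.33 SE, Q = 0.32), as did Exo and pLV-Exo-Wnt5a (log2FC -0.85 ± 0.37 SE, Q = 0.399). Against Con, the pLV-Exo-Wnt5a difference passed with DESeq2 and with no filter, with Q from 0.00774 to 0.873 over the alternatives. The unadjusted call of Exo against Con held in 2 of 6 fits that left out 1 library. It was lost without Con replicate 1 (log2FC -0.60), Con replicate 3, Exo replicate 1 or Exo replicate 3, and with the replicate block (log2FC -0.78). The unadjusted call of pLV-Exo-Wnt5a against Exo held in 3 of 6. It was lost without Exo replicate 2 (log2FC -0.55) and without pLV-Exo-Wnt5a replicate 1 or 3. Counts behind these values were 27 to 120 per library.

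Aldh1l1, a folate enzyme used as a pan-astrocyte marker, was at 1028, 845 and 822 CPM in Con, 767, 686 and 739 in Exo, and 856, 713 and 956 in the pLV-Exo-Wnt5a group. Con lay above Exo in every library (log2FC -0.31 ± 0.10 SE, edgeR, Q = 0.268), and pLV-Exo-Wnt5a against Exo was 0.22 ± 0.09 with overlap (Q = 0.394). Exo against Con was -0.20 without Con replicate 1, where its unadjusted call held, and the call was lost without Exo replicate 2 (log2FC -0.27). The call of pLV-Exo-Wnt5a against Exo held in 2 of 6 fits that left out 1 library, with a log2FC of 0.11 without pLV-Exo-Wnt5a replicate 3, and was also lost without pLV-Exo-Wnt5a replicate 1, Exo replicate 2 or Exo replicate 3. Glul, glutamine synthetase, was at 1822, 1728 and 1681 CPM in Con, 1646, 1766 and 1755 in Exo, and 1474, 1507 and 1531 in the pLV-Exo-Wnt5a group. Its pLV-Exo-Wnt5a libraries lay below all 6 others, with a log2FC of -0.18 ± 0.06 against Exo and -0.22 ± 0.08 against Con (SE, edgeR, Q = 0.226 and 0.546). The unadjusted call against Con was lost without pLV-Exo-Wnt5a replicate 1 (log2FC -0.21) and without Con replicate 2 (log2FC -0.23). Aldoc, the brain aldolase, Acsbg1, an acyl-CoA synthetase, Ppp1r3c, another glycogen-targeting subunit, and Plpp3, a lipid phosphatase, had p above 0.05 in the 3 comparisons. Aldoc ranged from 953 to 1226 CPM, Acsbg1 from 237 to 331, Ppp1r3c from 87.9 to 103 and Plpp3 from 607 to 825.

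Among the receptors, Fgfr3, a receptor of astrocyte progenitors, was at 203, 177 and 171 CPM in Con, 172, 173 and 165 in Exo, and 151, 133 and 146 in the pLV-Exo-Wnt5a group. The pLV-Exo-Wnt5a libraries lay below all 6 others (log2FC -0.24 ± 0.06 against Exo and -0.37 ± 0.10 against Con, SE, edgeR, Q = 0.144 and 0.354). Ntsr2, the neurotensin receptor of astrocytes, was at 40.8, 34.6 and 33.6 CPM in Con, 30.0, 32.1 and 36.5 in Exo, and 44.9, 38.2 and 42.3 in the pLV-Exo-Wnt5a group. All pLV-Exo-Wnt5a libraries lay above the Exo libraries (log2FC 0.36 ± 0.10 SE, edgeR, Q = 0.154), while Con overlapped both. F3, tissue factor, which starts coagulation, was at 23.02, 25.5 and 27.6 CPM in Con, 35.5, 32.2 and 32.2 in Exo, and 36.1, 32.3 and 34.2 in the pLV-Exo-Wnt5a group. Both exosome groups lay above Con without overlap, by log2FC of 0.38 ± 0.11 and 0.43 ± 0.11 (SE, edgeR, Q = 0.265 and 0.354). Ednrb, the endothelin B receptor, was at 306, 429.8 and 486 CPM in Con, 543, 453 and 418 in Exo, and 439, 329.7 and 501 in the pLV-Exo-Wnt5a group, and the 3 groups overlapped.

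Of the transcription factors, Nfib, which takes part in the switch of progenitors to glia, was at 19.2, 22.1 and 24.5 CPM in Con, 26.5, 26.4 and 24.5 in Exo, and 20.1, 15.1 and 19.3 in the pLV-Exo-Wnt5a group. All pLV-Exo-Wnt5a libraries were below the Exo libraries (log2FC -0.49 ± 0.11 SE, edgeR, Q = 0.102). Sox9 was at 202, 199 and 198 CPM in Con, 223, 206 and 192 in Exo, and 214, 195 and 226 in the pLV-Exo-Wnt5a group, and Nfia ranged from 29.0 to 42.5 CPM. Both had overlapping groups and p above 0.05 in the 3 comparisons.

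Among the calcium-binding, lipid-binding and matrix proteins, Sparcl1 and Sparc are related secreted proteins, of which Sparc opposes the synapse-forming activity of Sparcl1. Sparcl1 was at 396, 487 and 484 CPM in Con, 511, 592 and 569.8 in Exo, and 423, 428 and 405 in the pLV-Exo-Wnt5a group. The Exo libraries lay above all 6 others, and pLV-Exo-Wnt5a against Exo gave a log2FC of -0.40 ± 0.07 (SE, edgeR, Q = 0.0288). Leaving out 1 library at a time kept this call in 1 of 6 cases, and over all alternatives Q ran from 2.66e-05 to 0.209 while the log2FC stayed between -0.47 and -0.36. Exo against Con was 0.28 ± 0.10 (SE, edgeR, Q = 0.277). Its unadjusted call was lost without Exo replicate 2 (log2FC 0.23). Sparc was at 232, 178 and 177 CPM in Con, 184, 179.8 and 180.1 in Exo, and 222, 203 and 265 in the pLV-Exo-Wnt5a group, whose libraries all lay above Exo (log2FC 0.36 ± 0.09 SE, edgeR, Q = 0.116). The log2FC of Sparc was 0.235 without pLV-Exo-Wnt5a replicate 3, and Q passed without pLV-Exo-Wnt5a replicate 2 (0.0495). Gpc5, a heparan sulfate proteoglycan of astrocytes, was at 3.69, 5.19 and 5.66 CPM in Con, 8.17, 7.18 and 8.97 in Exo, and 6.92, 5.66 and 4.17 in the pLV-Exo-Wnt5a group. The Exo libraries lay above all 6 others, with log2FC of 0.74 ± 0.19 over Con and -0.53 ± 0.19 for pLV-Exo-Wnt5a against Exo (SE, edgeR, Q = 0.265 and 0.296). The latter lost its unadjusted call without pLV-Exo-Wnt5a replicate 3 (log2FC -0.36) and without Exo replicate 3. S100b, a calcium-binding protein, was at 10.95, 11.4 and 10.99 CPM in Con, 12.6, 11.8 and 11.02 in Exo, and 9.49, 11.2 and 10.3 in the pLV-Exo-Wnt5a group. Fabp7, the brain fatty acid-binding protein, was at 475, 578 and 615 CPM in Con, 574, 588 and 463 in Exo, and 505, 511 and 659 in the pLV-Exo-Wnt5a group. Both had p above 0.05 in the 3 comparisons.

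The metallothioneins, whose promoters are printed above, bind zinc and copper. Mt1 was at 512, 357 and 351 CPM in Con, 308, 321 and 361 in Exo, and 328, 287 and 328 in the pLV-Exo-Wnt5a group. Con and Exo overlapped, and all pLV-Exo-Wnt5a libraries lay below Con (log2FC -0.38 ± 0.14 SE, edgeR, Q = 0.529). The difference was -0.17 without Con replicate 1, and its unadjusted call was lost without pLV-Exo-Wnt5a replicate 2 (log2FC -0.31). Mt2 was at 176, 142 and 145 CPM in Con, 160.3, 136 and 138 in Exo, and 160.4, 156 and 169.5 after Wnt5a-modified exosomes, with a log2FC of 0.18 ± 0.07 for pLV-Exo-Wnt5a against Exo (SE, edgeR, Q = 0.353). That unadjusted call held in 2 of 6 fits that left out 1 library, and was lost without pLV-Exo-Wnt5a replicate 1 or 3 and without Exo replicate 2 or 3. Mt3 ranged from 292 to 408 CPM. For all 3 metallothioneins, Con replicate 1 was the highest of the 9 libraries.

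**Figure D5:**
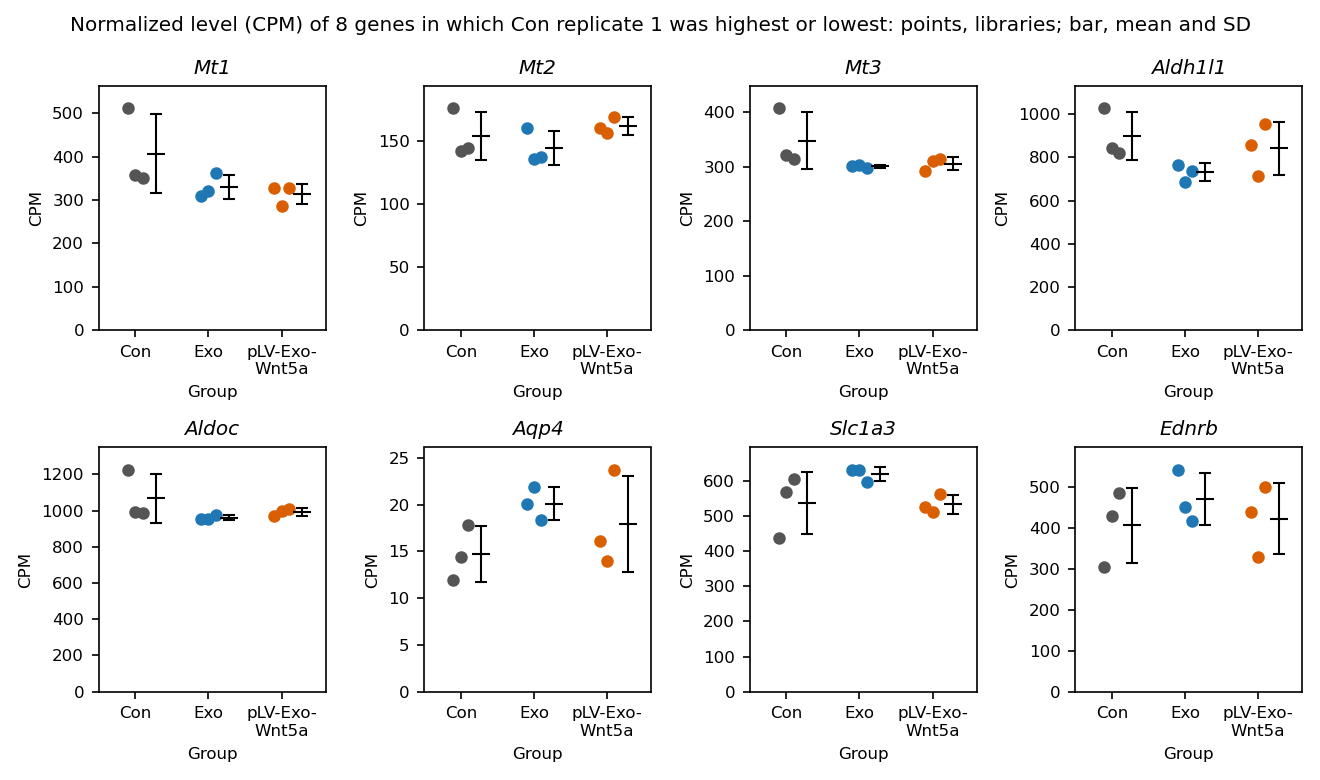
CPM of 8 members, chosen after their values were seen, in each library (points), by group, with the mean and SD (bars, n = 3). Con replicate 1 was the highest of the 9 libraries for Mt1 (512 CPM), Mt2, Mt3, Aldh1l1 and Aldoc and the lowest for Aqp4 (11.97 CPM), Slc1a3 and Ednrb.

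Con replicate 1 was also highest for Mlc1, Hepacam, Glul, Ppp1r3g, Cbs and Fgfr3, and lowest for Slc1a2, Slc4a4, F3, Gpc5 and Sparcl1. Without it, 18 of the 36 members were called at an unadjusted p of 0.05 in pLV-Exo-Wnt5a against Con, 7 higher and 11 lower, over a background of 9.30%, and 1, Slc6a11, passed Q.

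The astrocyte intermediate filament gene Gfap, which is not a member, averaged 2540 ± 446 CPM in Con, 2235 ± 38.0 in Exo and 4027 ± 55.7 with Wnt5a-modified exosomes (SD, n = 3), and rose in pLV-Exo-Wnt5a against Exo by a log2FC of 0.86 (edgeR, Q = 3.36e-05). The neuronal gene Rbfox3 averaged 87.0 ± 1.30, 87.9 ± 6.76 and 90.9 ± 13.0 CPM (SD, n = 3). A list of reactive astrocyte genes, which astrocytes raise after injury, had 19 of 31 tested genes called higher and 0 lower at an unadjusted p of 0.05 in pLV-Exo-Wnt5a against Exo, where 5.07% of all genes were called higher and 6.91% lower. Of these, 8 passed Q, over 0.436% of all genes, and the list's median log2FC was 0.89. Of 35 tested other astrocyte genes, 6 were called higher and 5 lower in that comparison. Gfap is in both lists and among their called genes. Of the 13 tested microglia and macrophage genes, 7 were called higher and 0 lower there, and in Exo against Con 0 were called higher and 6 lower, where 8.92% of all genes were called higher and 6.01% lower. Their summed levels were 81.7 to 83.6 CPM in Con, 64.3 to 70.3 CPM in Exo and 80.2 to 86.5 CPM after Wnt5a-modified exosomes, with the Exo libraries below all 6 others. The part of other cell types in the members' values was not tested.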

How the data were processed

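RNA-seq counts per gene of 9 libraries of rat NSC cultures (3 groups of 3) were used as deposited. The authors' processing notes name Bowtie2, RSEM 1.3.1 and DESeq2 1.4.5, while the methods name HISAT2, so the whole-number counts may be rounded estimates. The build and annotation are not given in the sources used here, and genes carry mouse symbols although the cells are rat. Every sample column had a sample (0 without). Groups came from the labels.

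Genes passing edgeR's filterByExpr were fitted pair by pair (R 4.3.3, edgeR 4.0.16, TMM, glmQLFit and glmQLFTest), with Benjamini-Hochberg adjustment over all genes tested, and the fits were tested on simulated data. CPM used TMM-adjusted totals. Alternatives were RLE scaling, DESeq2 1.42.0, a fit of all 9 libraries, no filter, at least 10 counts in every library, a replicate block and leaving out each library. After the group mean of each gene was subtracted from its log2 CPM, same-numbered libraries of different groups correlated between -0.201 and 0.0634. There was thus no sign that the numbers pair them. Replicates differed by more than counting noise (chi-square per degree of freedom 7.33 to 48.4).

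Members, lists and tests were chosen with earlier results of these data known. Named members are those with an unadjusted p under 0.05 in at least 1 comparison, plus the defining astrocyte genes Aqp4, Slc1a2, Slc1a3, Gja1, Aldh1l1, S100b and Sox9 and the member with the highest mean CPM of each functional group, all with their value in each library, and other members are given by range.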

Additional observations from a re-analysis of the deposited data

How the results depend on the processing

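The 36 log2FC with an unadjusted p under 0.05 (10, 17 and 9 in the 3 comparisons) kept their sign in every alternative, while other members changed sign: leaving out pLV-Exo-Wnt5a replicate 2 turned 16 higher and 20 lower members against Exo into 20 and 16, and leaving out Con replicate 1 turned 20 and 16 in Exo against Con into 24 and 12. RLE scaling and a minimum of 10 counts left the counts of members passing Q as they were, at 0 in Exo against Con, 2 in pLV-Exo-Wnt5a against Exo and 0 in pLV-Exo-Wnt5a against Con. DESeq2 gave 2, 9 and 3 members, and no filter gave 3, 7 and 3, where 1.93%, 1.71% and 0.372% of all genes passed. The fit of all 9 libraries gave 1 member at Q in each of the 2 comparisons of pLV-Exo-Wnt5a, where 0.298% (against Exo) and 0.104% (against Con) of all genes passed. Unadjusted, it called 12, 13 and 9 members in the 3 comparisons, where 18.2%, 7.41% and 10.9% of all genes were called. In pLV-Exo-Wnt5a against Exo 3 were higher and 10 lower, and Slc1a3, Mlc1, Aldh1l1 and Mt2 lost their unadjusted call. With the replicate block, 0, 3 and 1 members passed Q, where 0%, 0.767% and 0.252% of all genes did. Unadjusted, that fit called 9, 18 and 10 members, where 9.40%, 12.4% and 9.23% of all genes were called. With the fold limit, pLV-Exo-Wnt5a against Con gave 2 (DESeq2), 2 (no filter) and 1 (replicate block, Slc14a1) in place of 0.

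Leaving out each library in turn gave 0 to 2 members at Q in Exo against Con (2 without Con replicate 3, where 2.40% of all genes passed), 1 to 2 in pLV-Exo-Wnt5a against Exo and 0 to 1 in pLV-Exo-Wnt5a against Con. The unadjusted counts ran from 7 to 16 (16 without Con replicate 3, where 23.4% of all genes were called), 14 to 18 and 8 to 18 (18 without Con replicate 1, where 9.30% were). The median log2FC ran from 0.024 to 0.0791, from -0.1186 to 0.0076 and from -0.1025 to 0.0352, and the last 2 highs were without pLV-Exo-Wnt5a replicate 2. The causes were not tested. Slc7a11, Gjb6 and Ppp1r3g had 11 to 120 counts per library.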

Other observations

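Other gene lists, chosen with earlier results known, give context at an unadjusted p of 0.05 by edgeR, where 14.9% of all genes were called in Exo against Con, 12% in pLV-Exo-Wnt5a against Exo and 8.35% in pLV-Exo-Wnt5a against Con. Of 23 neuronal genes, 11 were called higher and 0 lower in Exo against Con (median log2FC 0.298), 0 higher and 3 lower in pLV-Exo-Wnt5a against Exo, and 5 higher and 0 lower in pLV-Exo-Wnt5a against Con. Of 14 NSC genes, 0 were called higher and 5 lower, 3 higher and 0 lower, and 1 higher and 2 lower in the same order of comparisons. Vim, called lower in Exo against Con and higher in pLV-Exo-Wnt5a against Exo, is also in the list of reactive astrocyte genes. Of 16 glutamate, glutathione and cystine genes, 4 were called higher and 0 lower, 1 higher and 1 lower, and 3 higher and 1 lower. Of 24 glycogen and glycolysis genes, 2 were called in Exo against Con (8.33%) and 2 in pLV-Exo-Wnt5a against Exo, both below the share of all genes, and 5 in pLV-Exo-Wnt5a against Con (2 higher, 3 lower). Of 13 metal handling genes, none of them a metallothionein, 1 was called higher and 1 lower, 2 higher and 3 lower, and 2 higher and 2 lower. Slc39a14, a zinc and manganese importer named after its value was seen, rose in pLV-Exo-Wnt5a against Exo by a log2FC of 0.54 (edgeR, Q = 0.017).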
